A study of Mus musculus with 14 samples.

Results

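A set of 46 genes was followed across the 4 groups of a mouse brain RNA-seq series, in 2 lists. The first list holds 18 homeostatic microglia genes, such as P2ry12 and Tmem119, which are used to tell resting microglia from other brain macrophages. The second holds 28 general myeloid genes, such as Lyz2 and Cd68, which microglia share with macrophages, monocytes and, in part, neutrophils. Members were chosen by symbol, with earlier results of these data known. Of the 46, 44 were found in the table of 13866 genes, and Gpr34 and Cd53 were not analysed here. A filter on low counts left 41 members among the 11852 genes tested, 15 of the homeostatic and 26 of the general list. Slc2a5, Mertk and Hpgds were in the table but not tested.

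Microglia are the resident macrophages of the brain. They enter the brain in the embryo and renew themselves there, under the lineage factor PU.1 (Spi1) and the receptor for colony stimulating factor 1 (Csf1r). In the healthy brain, signals such as TGF-β from neighbouring cells maintain a set of genes that other macrophages lack or carry at low levels, among them P2ry12, Tmem119, Siglech and Sall1. In many models of brain disease these homeostatic transcripts fall while phagocytic and lysosomal transcripts rise, so the 2 sets of genes are often read against each other.

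WT mice gave 3 libraries after PBS and 3 after CBE, and MyTrMaSt null mice gave 3 after PBS and 5 after CBE, all from brains taken at 19 days of age. WT mice were C57BL/6JOlaHsd from a supplier, and the paper describes no littermate controls. Differences between the genotypes therefore cannot be told apart from differences between colonies. MyTrMaSt null mice lack 4 signaling adaptors in every cell of the body, namely MyD88, TRIF (Ticam1), MAVS and STING (Tmem173), so the deletion is not restricted to microglia. Conduritol B-epoxide (CBE) blocks acid β-glucosidase covalently, so that glucosylceramide builds up in lysosomes as it does in Gaucher disease. It was injected i.p. at 100 mg/kg each day from day 8, with PBS as the control injection. RNA came from homogenized brain tissue and not from sorted cells, so fewer cells of a type and less RNA per cell cannot be told apart. The labels number the libraries but do not name the animals, so p-values measure the spread between libraries.

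Library totals ran from 1290616 to 3704691 counts, and levels are CPM (counts scaled to a library of 1000000) on TMM-scaled library sizes. The library with the lowest total, WT + PBS replicate 1, stood apart: its Spearman correlation with the other WT + PBS libraries was 0.912, against 0.964 to 0.986 for all other pairs within groups. Counts of calls without it are given for each comparison, and single values without it for some members. Counts of Xist, an X-linked RNA used as a mark of sex, were 0 in each WT + PBS library and 1 to 47 with CBE in WT. They were 32 to 46 in MyTrMaSt + PBS and 0 to 39 with CBE in MyTrMaSt. Xist thus differed between the WT groups and between the PBS groups, and both differences enter the interaction. Its part was addressed only by a fit with its level as a covariate. Between the PBS groups it cannot be told apart from genotype. Brain cell markers were present in all libraries, with the 10 neuron markers summing to 4143 to 6780.2 CPM. Of the deleted genes, Myd88 stood at 3.11 to 10.8 CPM in the MyTrMaSt libraries and 9.95 to 27.2 CPM in the WT libraries. Tmem173 stood at 5.02 to 12.8 and 0.902 to 8.73 CPM in the same libraries, and Ticam1 and Mavs overlapped between genotypes. The libraries tag transcript 3' ends, so a tag outside the altered part of a gene does not check the genotype.

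The promoters of the 2 lists differed in how often they held a PU.1-like core, which the choice of members did not use. PU.1 binds a purine-rich core built on GGAA, and the short form GAGGAA was searched on both strands in windows of 300 bases, from 250 before to 50 after each RefSeq gene start (GRCm38.p6). Promoters were given for 35 of the 46 members, 43 windows in all. GAGGAA occurred in 14 of 27 windows of general myeloid genes (51.9%), in 3 of 16 windows of homeostatic genes (18.8%) and in 28.3% of all 32851 windows. The longer form GAGGAAGT, which contains it, occurred in 5 of 27, 0 of 16 and 3.2% of windows, and its 5 carriers were Inpp5d, Cd53, Hpgds, Cd37 and Pld4. The composite GGAANNGAA occurred in 3, 0 and 8.24%, and the interferon response form GAAANNGAA in 5, 0 and 8.56%. These counts describe letters in a window and not binding, and the difference between the lists was not tested. The 250 bases before the start are shown for 5 members whose levels are described in turn, to set general myeloid genes beside homeostatic ones. GAGGAA is in capitals, or TTCCTC where it lies on the opposite strand. In Cybb the capitals mark GAAANNGAA on either strand. Itgam (chr7:128062390-128062639, plus strand), Aif1 (chr17:35176053-35176302, minus strand) and Cybb (chrX:9469325-9469574, minus strand) are general myeloid genes. Fcrls (chr3:87263525-87263774, minus strand) and P2ry12 (chr3:59262986-59263235, minus strand) are homeostatic genes, and P2ry12 held no GAGGAA in this stretch.
Itgam: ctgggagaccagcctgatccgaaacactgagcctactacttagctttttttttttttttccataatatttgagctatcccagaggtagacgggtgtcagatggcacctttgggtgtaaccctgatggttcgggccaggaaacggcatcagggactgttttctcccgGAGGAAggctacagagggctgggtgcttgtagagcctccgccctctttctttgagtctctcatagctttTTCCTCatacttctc
Aif1: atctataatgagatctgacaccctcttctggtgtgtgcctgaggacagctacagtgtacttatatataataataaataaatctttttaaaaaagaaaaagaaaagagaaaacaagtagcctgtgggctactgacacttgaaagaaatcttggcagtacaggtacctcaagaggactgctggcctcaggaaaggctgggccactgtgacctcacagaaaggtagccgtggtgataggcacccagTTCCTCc
Cybb: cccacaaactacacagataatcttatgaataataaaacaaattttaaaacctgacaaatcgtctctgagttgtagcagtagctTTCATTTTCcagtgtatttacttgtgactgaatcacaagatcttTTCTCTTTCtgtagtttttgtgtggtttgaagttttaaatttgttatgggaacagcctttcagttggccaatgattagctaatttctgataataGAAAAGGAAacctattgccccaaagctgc
Fcrls: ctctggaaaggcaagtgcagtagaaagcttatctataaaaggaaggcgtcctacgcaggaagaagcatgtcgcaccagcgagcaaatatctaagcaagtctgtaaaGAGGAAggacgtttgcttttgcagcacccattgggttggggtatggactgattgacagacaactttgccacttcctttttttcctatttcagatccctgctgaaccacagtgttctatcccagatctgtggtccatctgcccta
P2ry12: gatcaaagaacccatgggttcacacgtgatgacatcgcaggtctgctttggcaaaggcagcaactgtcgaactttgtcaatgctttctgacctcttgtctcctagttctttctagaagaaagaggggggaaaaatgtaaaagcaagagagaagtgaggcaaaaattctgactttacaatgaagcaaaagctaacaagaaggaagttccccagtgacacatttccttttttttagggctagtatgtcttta

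Upon CBE injection of WT mice, most general myeloid genes rose several-fold. The homeostatic changes were graded, from a log2 of -0.18 to 1.97, with 13 of 15 above 0. Differences were tested with edgeR's quasi-likelihood F test, and a member was called when its change reached 2-fold and its p, adjusted over all genes by Benjamini-Hochberg, was below 0.05. Log2 changes are given ± SE. In WT mice 23 of 26 general myeloid genes were called higher and 0 lower, with a median log2 change of 2.60. Of the homeostatic genes, 7 of 15 were called higher and 0 lower, with a median of 0.85. Among all genes tested, 5.2% were called higher and 1.21% lower (6.4% in all), and the median was -0.02. All WT + CBE libraries were above all WT + PBS libraries for 25 of 26 general and 9 of 15 homeostatic genes (15.1% of all genes), and below them for 0 and 1 (12.8%). On the adjusted p alone 24 general and 9 homeostatic genes passed (10.6%). Without WT + PBS replicate 1 the counts were 24 of 26 (median 2.58) and 7 of 16 (median 0.87), with 6.58% of all genes called in either direction. The homeostatic count fell to 4 without WT + PBS replicate 2 or WT + CBE replicate 1, and to 4 of 15 when the 2 WT groups were fitted alone, where 22 general genes were called. With Xist level as a covariate 5 homeostatic and 22 general genes were called.

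**Figure D1:**
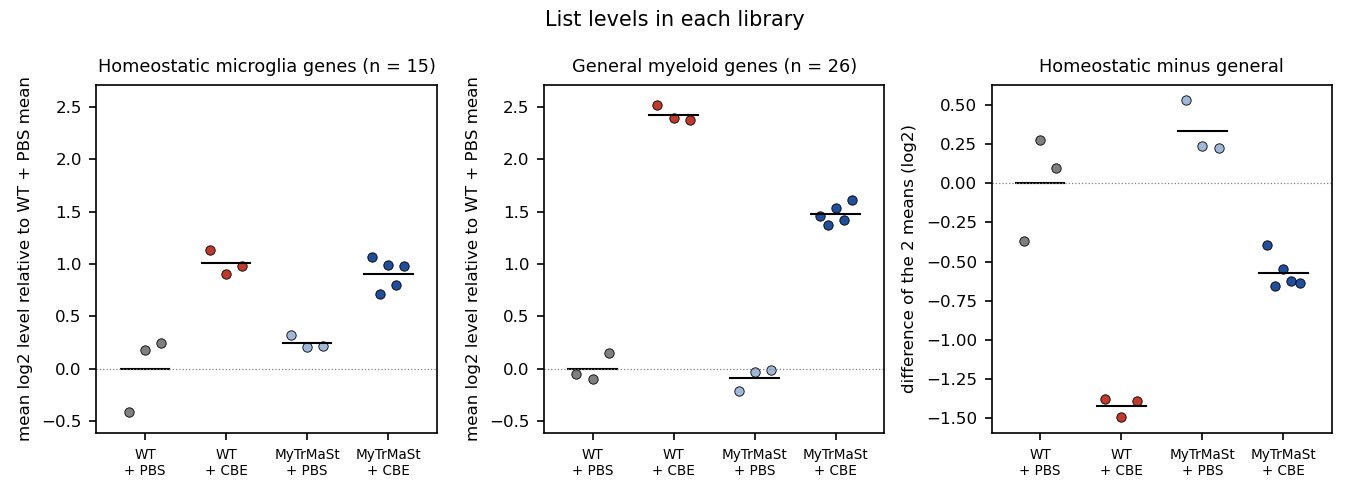
Mean log2 level of the homeostatic list (left, 15 genes) and of the general myeloid list (middle, 26 genes) in each library, each gene set relative to its WT + PBS mean, and the difference of the 2 means (right). Points are libraries and bars are group means. With CBE the general list reached 2.37 to 2.52 for WT and 1.37 to 1.61 for MyTrMaSt, while the homeostatic list stood at 0.72 to 1.14 in both. With PBS the homeostatic list stood at -0.42 to 0.24 for WT, lowest in replicate 1, and at 0.20 to 0.32 for MyTrMaSt.

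The purinergic receptors of the homeostatic list, which sense extracellular nucleotides, had unlike fitted changes. P2ry12, the ADP receptor that guides microglial processes to injury, measured 2.71, 30.1 and 34.6 CPM in the WT mice given PBS and 27.1, 22.1 and 27.7 CPM in those given CBE. The WT + CBE values lie inside the WT + PBS range, and the low WT + PBS value rests on 3 counts in replicate 1. The log2 change was 0.05 ± 0.39 (adjusted p 0.963), and -0.32 without that library (adjusted p 0.409). P2ry6, the UDP receptor linked to phagocytosis, had 7.22, 3.04 and 4.64 CPM in the WT mice given PBS and 18.04, 15.49 and 18.7 CPM in those given CBE. All WT + CBE libraries were above all WT + PBS libraries, a 3.92-fold rise (log2 1.97 ± 0.33, adjusted p 0.000443). P2ry13, a second ADP receptor, rose 2.14-fold (log2 1.10 ± 0.33, adjusted p 0.0379). Its call was lost when any 1 WT + CBE library, or WT + PBS replicate 2, was left out (adjusted p 0.059 to 0.144).

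The fitted changes of the other homeostatic receptors also ranged widely, and differences between genes were not tested. Cx3cr1, the fractalkine receptor, had 6.32, 26.53 and 26.6 CPM in the WT mice given PBS and 84.1, 62.4 and 87.4 CPM in those given CBE. The groups did not overlap and the rise was 3.61-fold (log2 1.85 ± 0.31, adjusted p 0.000448), with a log2 of 1.56 without WT + PBS replicate 1. Fcrls, an Fc receptor-like molecule of microglia, had 32.49, 20.7 and 21.1 CPM in the WT mice given PBS and 113, 71.8 and 86.8 CPM in those given CBE, and rose 3.82-fold (log2 1.93 ± 0.21, adjusted p 3.46e-06). Siglech, a sialic acid-binding lectin, measured 0, 13.8 and 9.28 CPM in the WT mice given PBS and 9.02, 7.51 and 8.44 CPM in those given CBE. The 0 in replicate 1 allows up to 2.71 CPM, the level of 3 counts there. Its groups overlapped and its log2 change was -0.14 ± 0.45 (adjusted p 0.895), and -0.48 without that library.

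Among surface molecules and transcription factors, Tmem119, Selplg and Sall1 were not called. Tmem119, a transmembrane protein used to label microglia, had 46.03, 32.1 and 22.8 CPM in the WT mice given PBS and 64.01, 42.2 and 60.9 CPM in those given CBE. The groups overlapped and the log2 change was 0.78 ± 0.27 (adjusted p 0.0762). It was called without WT + PBS replicate 1 (log2 1.02, adjusted p 0.00974). Selplg, the P-selectin ligand, had 47.8, 46.97 and 48.1 CPM in the WT mice given PBS and 45.97, 34.7 and 45.2 CPM in those given CBE. All WT + CBE values were below all WT + PBS values, by a log2 change of -0.18 ± 0.23 (adjusted p 0.701). Sall1, a transcription factor of microglia identity, had 13.54, 13.3 and 9.28 CPM in the WT mice given PBS and 24.7, 23.00 and 15.7 CPM in those given CBE. All WT + CBE libraries were above WT + PBS, and the change passed the adjusted p but not the fold (1.80-fold, adjusted p 0.0395), and was called without WT + CBE replicate 3 (log2 1.01, adjusted p 0.0259). Maf, a transcription factor of many macrophages, rose 2.05-fold (adjusted p 0.0414), and its call was lost in 10 of the 14 fits that each left out 1 library (adjusted p 0.0503 to 0.156). Itgb5, the integrin β5 chain, had a log2 change of 0.44 ± 0.22 (adjusted p 0.232).

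The secreted proteins of the homeostatic list included 2 called genes. Rnase4, a secreted ribonuclease, rose 2.90-fold (adjusted p 0.000116), and Olfml3, an olfactomedin-like matrix protein, rose 2.01-fold (adjusted p 0.00546). Olfml3 fell under the fold threshold without WT + CBE replicate 1, WT + PBS replicate 2 or WT + PBS replicate 3 (log2 0.85 to 0.96). Golm1, a Golgi membrane protein, passed the adjusted p at 1.56-fold (0.0238), and Sparc, a matrix glycoprotein that astrocytes and endothelium also make, did not (log2 0.497, adjusted p 0.123). In the plot of single homeostatic genes, the top row holds 4 genes that were not called, P2ry12, Siglech, Selplg and Tmem119.

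**Figure D2:**
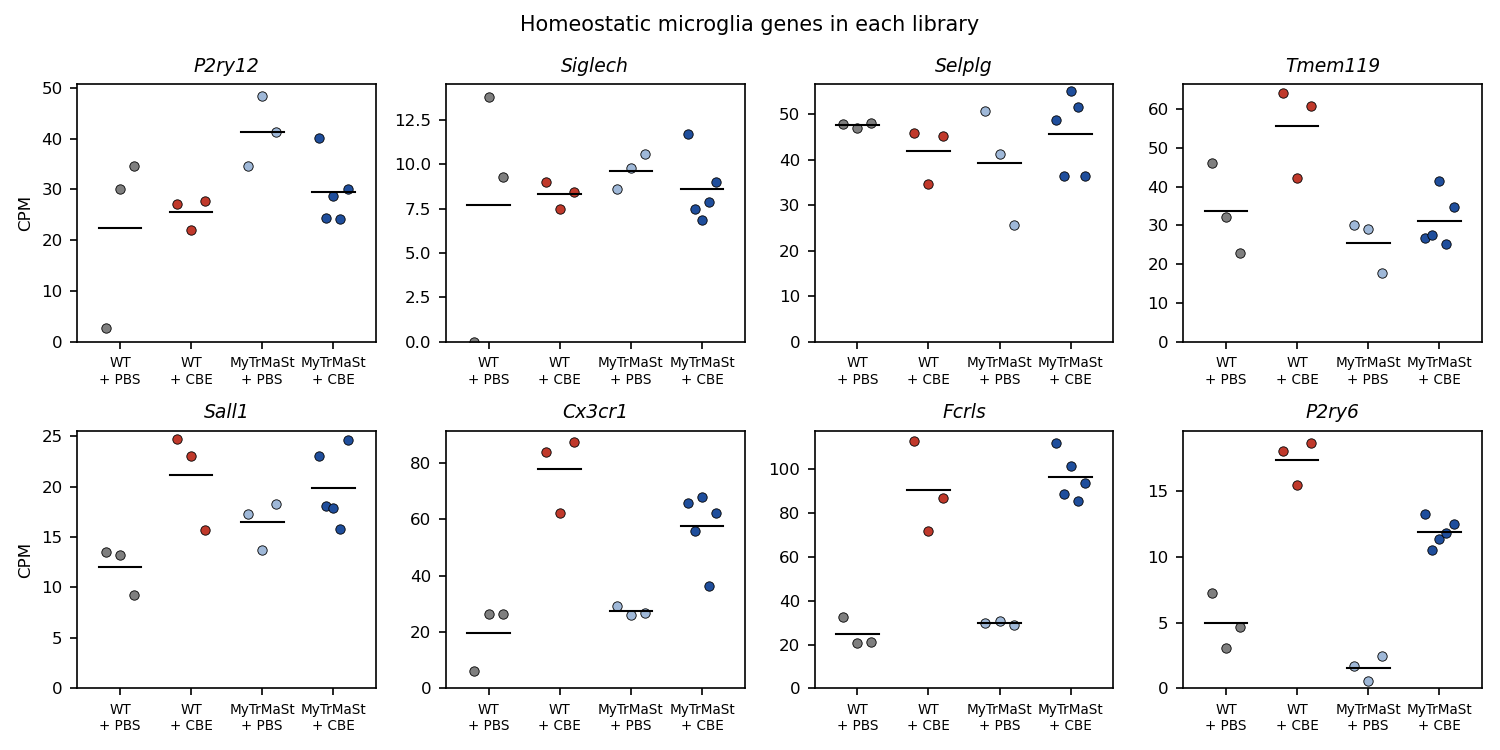
CPM of 8 homeostatic genes in each library, by group. Points are libraries, bars are group means and each axis starts at 0. P2ry12 and Siglech are lowest in 1 WT + PBS library (2.71 and 0 CPM), Selplg lies between 25.7 and 55.1 CPM in all libraries, and Cx3cr1, Fcrls and P2ry6 are higher in both CBE groups than in their PBS groups.

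In the general myeloid list, the 3 largest fitted changes in WT mice were those of Cybb, Itgb2 and Cd68. Cybb, the membrane subunit of the phagocyte NADPH oxidase, had 0, 0.829 and 0.844 CPM in the WT mice given PBS and 29.7, 27.7 and 24.1 CPM in those given CBE. The PBS libraries held 5 counts in all and the CBE libraries 201, a ratio of 39.5 with a 95% counting interval of 16.6 to 123. The fitted log2 change was 5.20 ± 0.45 (adjusted p 2.25e-07). Itgb2, the shared β2 integrin chain of leukocytes, had 2.71, 4.42 and 8.44 CPM in the WT mice given PBS and 83.2, 84.9 and 72.3 CPM in those given CBE, a 14.52-fold rise (log2 3.86 ± 0.30, adjusted p 6.21e-08). Its partner Itgam, which forms the complement receptor CD11b/CD18, had 7.22, 15.2 and 19.4 CPM in the WT mice given PBS and 64.01, 49.3 and 60.9 CPM in those given CBE, a 3.91-fold rise (adjusted p 2.69e-05). For each of these 3 genes every WT + CBE library was above every WT + PBS library.

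The 7 lysosomal and effector genes of the list were all called higher in WT mice. Cd68, a lysosomal membrane glycoprotein of phagocytes, had 15.3, 16.3 and 17.3 CPM in the WT mice given PBS and 224, 242 and 219 CPM in those given CBE. That is a 13.8-fold rise (log2 3.79 ± 0.21, adjusted p 1.53e-09) with the smallest adjusted p of the members in WT mice. Lyz2, the macrophage lysozyme, had 27.1, 9.12 and 12.2 CPM in the WT mice given PBS and 175, 204 and 183 CPM in those given CBE, a 13.1-fold rise (log2 3.71, adjusted p 1.93e-08), and a log2 of 4.16 without WT + PBS replicate 1. Lyz1 is its near-identical copy, and the paper kept only uniquely mapped reads, so reads that fit both genes may be missing from its count. Mpeg1, a pore-forming protein, rose 11.46-fold, Laptm5, a lysosomal membrane protein, 5.93-fold, and Ly86, the MD-1 partner of RP105, 7.21-fold. The smaller rises were those of Pld4, a lysosomal exonuclease (3.26-fold), and Unc93b1, the chaperone of endosomal TLRs (2.35-fold). The Unc93b1 call was lost without WT + CBE replicate 2, WT + PBS replicate 2 or WT + PBS replicate 3 (adjusted p 0.0699 to 0.0908).

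Leukocyte surface genes and the oxidase subunits rose as well. Ptprc, which encodes the pan-leukocyte phosphatase CD45, had 2.71, 1.66 and 1.27 CPM in the WT mice given PBS and 24.1, 17.4 and 21.7 CPM in those given CBE, a 12.1-fold rise (log2 3.60 ± 0.40, adjusted p 5.63e-06). Cd14, the LPS co-receptor, rose 8.33-fold, Adgre1, which encodes F4/80, 7.60-fold, the tetraspanin Cd37 6.18-fold and the sialic acid receptor Cd33 5.49-fold. Cyba, the second membrane subunit of the oxidase, rose 8.16-fold and Ncf1, a cytosolic subunit, 4.46-fold. Of the actin and signaling genes, Aif1 (IBA1) rose 6.40-fold, the adaptor Fyb 6.18-fold, the actin bundler Lcp1 5.497-fold, the lipid phosphatase Inpp5d 3.59-fold and Arhgdib 3.53-fold. The adjusted p of these genes ran up to 0.00425, that of Fyb. Leaving out WT + PBS replicate 1, which held the highest PBS values of Cyba and Aif1, raised the log2 change of Cyba from 3.03 to 3.63, a move of more than 1.5 times in fold, and that of Aif1 from 2.68 to 3.11.

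Spi1, which encodes PU.1, had 5.41, 1.11 and 2.11 CPM in the WT mice given PBS and 13.97, 11.3 and 8.44 CPM in those given CBE, and the groups did not overlap. It rose 5.10-fold (log2 2.35 ± 0.42, adjusted p 0.000905), and its log2 change was 2.90 without WT + PBS replicate 1. The remaining 3 general myeloid genes were not called in WT mice. Csf1r, the growth factor receptor on which microglia depend, had 90.2, 64.9 and 74.2 CPM in the WT mice given PBS and 169, 136 and 142 CPM in those given CBE. The groups did not overlap and the adjusted p was 0.000797, but the fitted change of 1.98-fold stayed under the threshold. It was 1.12 on the log2 scale, and called, without WT + PBS replicate 1, and was also called without WT + CBE replicate 2 or 3 or MyTrMaSt + CBE replicate 5. Rgs10, a regulator of G-protein signaling, had 148, 113 and 114 CPM in the WT mice given PBS and 165, 154 and 152 CPM in those given CBE, which do not overlap, with a log2 change of 0.34 ± 0.16 (adjusted p 0.195). Coro1a, an actin-binding protein of leukocytes that neurons also express, had 190.4, 74.9 and 107 CPM in the WT mice given PBS and 97.47, 112 and 95.2 CPM in those given CBE. It overlapped, with a log2 change of -0.25 ± 0.24 (adjusted p 0.579), and 0.18 without WT + PBS replicate 1, which held its highest value.

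**Figure D3:**
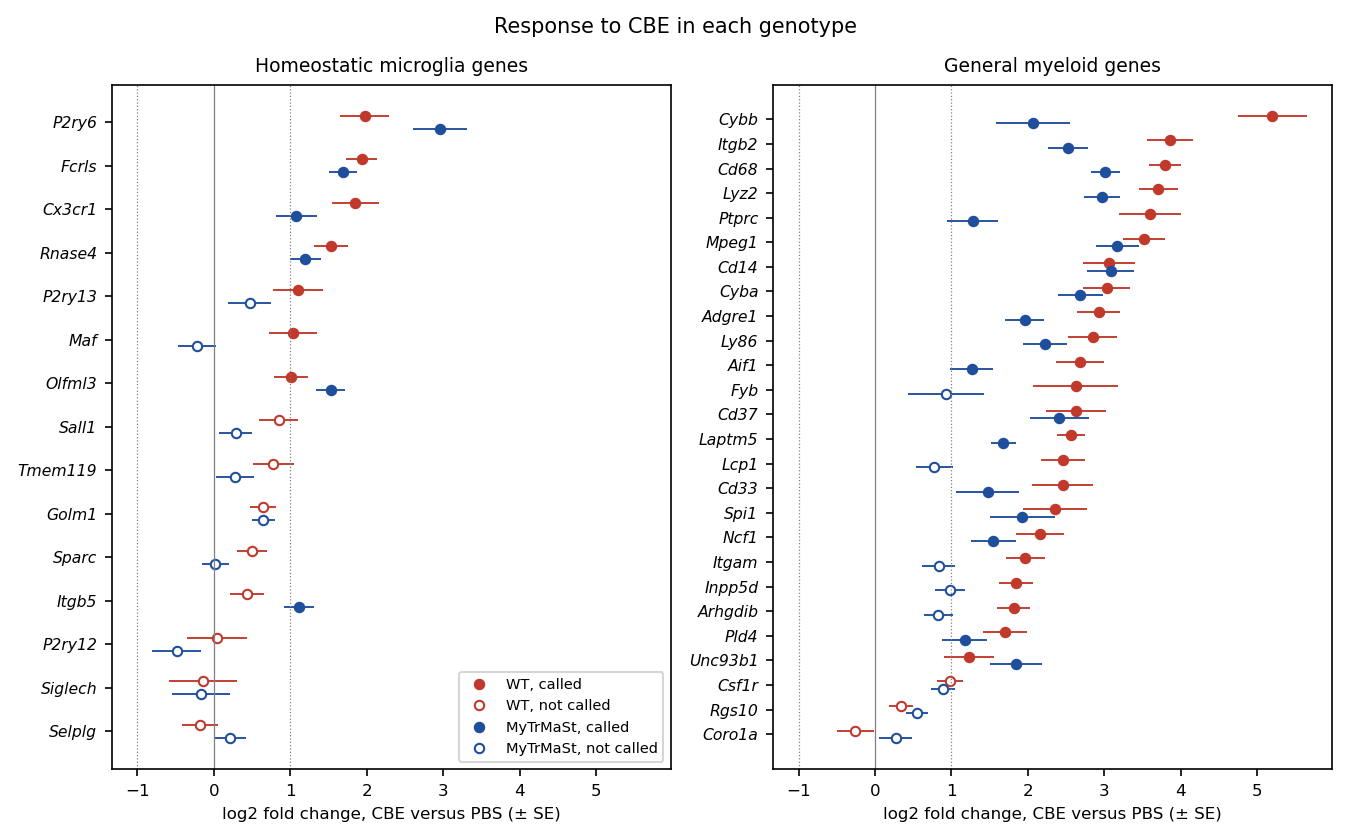
Log2 fold change of CBE versus PBS (± SE) for each tested member in WT mice (red) and MyTrMaSt null mice (blue), for homeostatic genes (left) and general myeloid genes (right), sorted by the WT value. Filled points were called and dotted lines mark 2-fold. In WT mice 23 general genes and 7 homeostatic genes are filled, and in MyTrMaSt null mice 18 and 6.

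In MyTrMaSt null mice CBE also raised most general myeloid genes. Of the 26 tested, 18 were called higher and 0 lower, with a median log2 change of 1.61, and 6 of 15 homeostatic genes were called higher and 0 lower, with a median of 0.47. Among all genes tested 3.23% were called higher and 0.658% lower (3.89% in all), and the median was 0.01. The groups did not overlap, in the upward direction, for 23 general and 7 homeostatic genes (11.8% of all genes), and in the downward direction for 0 (10.7%). On the adjusted p alone 23 and 7 passed (7.75%). With the replicate number as a block in the fit, 12 general and 6 homeostatic genes were called higher. Without WT + PBS replicate 1, which enters this comparison through the shared spread and the filter, 18 of 26 and 6 of 16 were called higher. Slc2a5, the fructose transporter of microglia, then entered the test and was called lower (log2 -1.06, adjusted p 0.0306), also without MyTrMaSt + PBS replicate 1 (adjusted p 0.0324). Its levels were 3.80, 6.08 and 8.81 CPM in the null mice given PBS and 2.73, 1.88, 3.65, 2.46 and 3.91 CPM in those given CBE, which overlap.

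P2ry12 had 34.53, 48.3 and 41.2 CPM in the null mice given PBS and 40.1, 24.4, 28.8, 24.1 and 30.1 CPM in those given CBE, with overlapping groups and a log2 change of -0.49 ± 0.32 (adjusted p 0.384). P2ry6 had 1.73, 0.528 and 2.47 CPM in the null mice given PBS and 13.2, 10.52, 11.3, 11.8 and 12.53 CPM in those given CBE. Its 14 counts in all MyTrMaSt + PBS libraries against 146 gave a ratio of 8.08 with a 95% counting interval of 4.67 to 15.2, and the fitted rise was the largest of the homeostatic list (log2 2.96 ± 0.35, adjusted p 2.59e-05). Cx3cr1 had 29.3, 26.2 and 26.8 CPM in the null mice given PBS and 65.9, 55.96, 68.1, 36.4 and 62.2 CPM in those given CBE, a 2.11-fold rise (adjusted p 0.0185) whose call was lost when any 1 of the MyTrMaSt + PBS libraries was left out (0.0541 to 0.0897). The groups did not overlap. Fcrls had 29.7, 30.6 and 28.9 CPM in the null mice given PBS and 112, 88.6, 101, 85.7 and 93.9 CPM in those given CBE, a 3.23-fold rise (adjusted p 7.99e-06).

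Siglech measured 8.63, 9.77 and 10.6 CPM in the null mice given PBS and 11.7, 7.51, 6.89, 7.88 and 9.003 CPM in those given CBE. Selplg measured 50.8, 41.2 and 25.7 CPM in the null mice given PBS and 48.7, 36.4, 55.1, 51.7 and 36.4 CPM in those given CBE. Both overlapped between the groups, with log2 changes of -0.16 and 0.21. Tmem119 had 30.04, 29.1 and 17.6 CPM in the null mice given PBS and 26.9, 27.4, 41.3, 25.1 and 34.8 CPM in those given CBE, a log2 change of 0.28 ± 0.24 (adjusted p 0.524). Sall1 had 17.3, 13.7 and 18.3 CPM in the null mice given PBS and 22.99, 18.03, 17.8, 15.8 and 24.7 CPM in those given CBE, a log2 change of 0.28 ± 0.21 (adjusted p 0.442). Neither was called and both overlapped. The other called homeostatic genes in MyTrMaSt null mice were Olfml3 (2.89-fold), Rnase4 (2.30-fold) and Itgb5 (2.17-fold, adjusted p 0.00176). Itgb5 fell to a log2 of 0.97 without MyTrMaSt + PBS replicate 3. Maf (log2 -0.22) and P2ry13 (log2 0.47), called in WT mice, were not called here, and their interactions are given with the genotype comparison.

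Of the general myeloid genes, Cd68 had 13.47, 15.9 and 22.2 CPM in the null mice given PBS and 145, 137, 111, 129 and 171 CPM in those given CBE, an 8.08-fold rise (log2 3.02 ± 0.19, adjusted p 1.71e-08). Lyz2 had 12.1, 10.6 and 11.98 CPM in the null mice given PBS and 96.6, 85.2, 85.1, 86.7 and 96.7 CPM in those given CBE, a 7.80-fold rise (adjusted p 2.32e-07). Itgb2 had 4.14, 7.93 and 7.75 CPM in the null mice given PBS and 37.02, 36.1, 35.3, 32.99 and 52.1 CPM in those given CBE, a 5.77-fold rise (adjusted p 5.5e-06). None of these 3 genes overlapped between the groups. Cybb had 0, 1.32 and 1.06 CPM in the null mice given PBS and 4.29, 3.004, 3.65, 2.95 and 4.31 CPM in those given CBE, with 8 counts against 45, a ratio of 4.36 and a 95% counting interval of 2.03 to 10.7 (fitted log2 2.07 ± 0.48, adjusted p 0.0123). Ptprc had 3.80, 1.85 and 4.93 CPM in the null mice given PBS and 10.1, 6.38, 7.29, 5.91 and 11.7 CPM in those given CBE, a 2.43-fold rise (adjusted p 0.0245). Spi1 had 1.04, 1.59 and 1.41 CPM in the null mice given PBS and 3.90, 4.51, 5.67, 7.39 and 5.48 CPM in those given CBE, a 3.81-fold rise (adjusted p 0.00846).

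The calls of 4 general genes in MyTrMaSt null mice depended on single libraries. Aif1 lost its call without MyTrMaSt + PBS replicate 1 or 3 (adjusted p 0.0532 to 0.0719), and Ptprc without MyTrMaSt + PBS replicate 1 or 2 or MyTrMaSt + CBE replicate 5 (0.0602 to 0.146). Pld4 lost it without any 1 MyTrMaSt + PBS library or MyTrMaSt + CBE replicate 2 (0.0503 to 0.124). Cd33 lost it without any 1 MyTrMaSt + PBS library or MyTrMaSt + CBE replicate 2, 3, 4 or 5 (0.0531 to 0.128). The other 14 general genes were called in all 14 fits that left out 1 library, and 22 of 23 general genes were in WT mice.

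The 8 general genes that were not called in MyTrMaSt null mice were mostly near the thresholds. Itgam had 19.7, 15.9 and 22.9 CPM in the null mice given PBS and 33.9, 26.3, 38.1, 39.4 and 35.2 CPM in those given CBE, and the groups did not overlap, but the change was 1.78-fold (adjusted p 0.0256). Csf1r had 55.9, 60.8 and 57.1 CPM in the null mice given PBS and 89.2, 104, 105, 136 and 105 CPM in those given CBE, a change of 1.86-fold (adjusted p 0.00151). Arhgdib (1.78-fold), Inpp5d (1.97-fold) and Rgs10 (1.46-fold) likewise passed the adjusted p and not the fold, and Inpp5d was called without MyTrMaSt + CBE replicate 1, 3 or 4 or MyTrMaSt + PBS replicate 3 (log2 1.01 to 1.07). Rgs10 measured 107, 109 and 82.4 CPM in the null mice given PBS and 125, 142, 156, 164 and 141 CPM in those given CBE, with no overlap. Coro1a measured 73.2, 76.1 and 57.1 CPM in the null mice given PBS and 74.8, 92.01, 94.02, 74.8 and 79.46 CPM in those given CBE, which overlap. Coro1a (log2 0.27, adjusted p 0.49), Lcp1 (log2 0.78, adjusted p 0.0578) and Fyb (log2 0.93, adjusted p 0.274) passed neither.

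**Figure D4:**
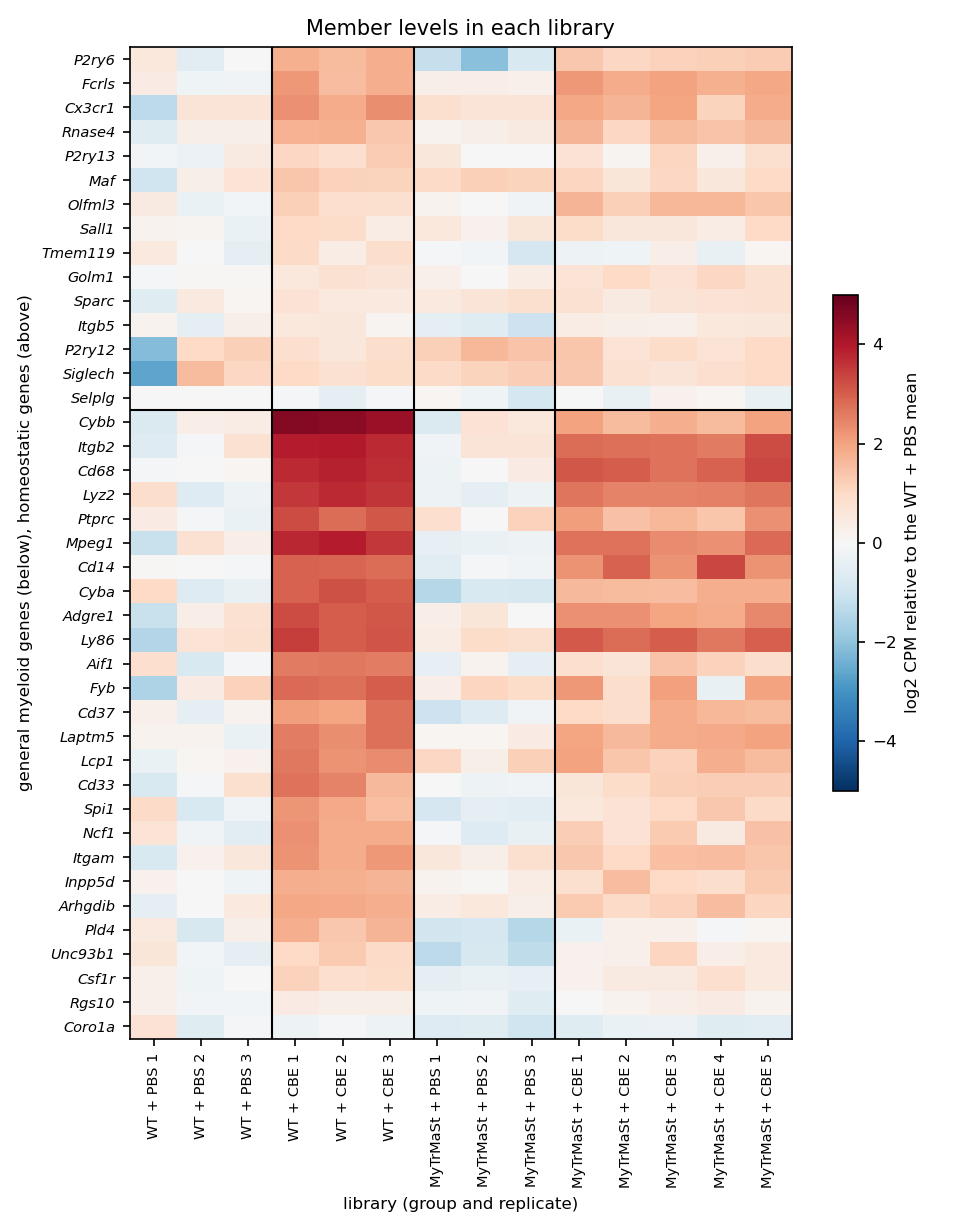
Log2 CPM (prior count 2) of the 41 tested members in each of the 14 libraries, relative to the WT + PBS mean of the gene. Rows are homeostatic genes above the horizontal line and general myeloid genes below it, in the order of the WT response, and columns are libraries by group. WT + PBS replicate 1 is low for P2ry12 (-2.16), Siglech and Cx3cr1, and lies on either side of the other WT + PBS libraries among the general genes.

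Set against each other, the lists lay further apart in the WT + CBE libraries than in the MyTrMaSt + CBE libraries. The mean log2 level of the homeostatic list minus that of the general list, relative to WT + PBS, was -1.38, -1.495 and -1.39 in WT + CBE. It was -0.39, -0.66, -0.55, -0.63 and -0.64 in MyTrMaSt + CBE. In the PBS libraries it was -0.37, 0.27 and 0.10 in WT and 0.53, 0.24 and 0.23 in MyTrMaSt. The WT + CBE values lie below all others, and the MyTrMaSt + CBE values lie below all PBS values, that of WT + PBS replicate 1 being the nearest. After CBE the homeostatic mean itself was 0.90 to 1.14 for WT and 0.72 to 1.06 for MyTrMaSt, so these groups overlapped. With PBS it was -0.42, 0.18 and 0.24 in WT and 0.20 to 0.32 in MyTrMaSt. WT + PBS replicate 1, at -0.42, thus lowers the WT + PBS mean to which these levels are set. The general mean was 2.37 to 2.52 and 1.37 to 1.61, with no overlap. These means describe the lists and carry no test.

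The direct comparison of MyTrMaSt + CBE with WT + CBE gave 9 general myeloid genes called lower and 0 higher, of 26 tested, and 0 of 15 homeostatic genes in either direction. Among all genes tested 1.93% were called lower and 0.0759% higher (2.01% in all). The fitted log2 change was below 0 for all 26 general genes (median -0.92, all genes 0.02), and 21 of 26 did not overlap between the groups, against 6.02% of all genes in that direction. At an adjusted p below 0.05 without the fold threshold 14 general genes and 0 homeostatic genes passed, against 2.54% of all genes. On the adjusted p alone 2 homeostatic genes passed without WT + PBS replicate 1, Tmem119 (log2 -0.85, adjusted p 0.0121) and Olfml3 (0.56, 0.0418). Of the homeostatic genes 3 lay wholly below and 1 wholly above WT + CBE, the latter against 3.94% of all genes. At an unadjusted p below 0.05, 3 homeostatic genes passed, against 8.06% of all genes (median log2 of the list -0.03). Without WT + PBS replicate 1, 11 general genes were called lower (2.26% of all genes in either direction), Spi1 and Fyb being the added ones.

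Cybb held the largest of these differences. After CBE, Cybb stood at 24.1 to 29.7 CPM in WT and at 2.95 to 4.31 CPM in null mice, 7.39-fold lower (log2 -2.89 ± 0.28, adjusted p 1.66e-06). Cyba had 217, 253 and 228 CPM in WT + CBE and 85.3, 83.00, 81.46, 96.99 and 97.9 CPM in MyTrMaSt + CBE, 2.62-fold lower (adjusted p 0.00119). In the PBS groups Cyba had 55.95, 17.1 and 21.1 CPM in WT and 9.67, 15.9 and 15.50 CPM in MyTrMaSt. Ncf1 passed the adjusted p at 1.93-fold lower (0.043), and was called without MyTrMaSt + CBE replicate 5 (log2 -1.08).

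Aif1, the microglial marker IBA1, had 80.6, 83.1 and 78.9 CPM in WT + CBE and 23.4, 20.7, 36.1, 29.05 and 24.3 CPM in MyTrMaSt + CBE, 3.04-fold lower (log2 -1.60 ± 0.24, adjusted p 0.000364). Its PBS values were 23.46, 7.18 and 12.2 CPM in WT and 9.32, 14.53 and 8.81 CPM in MyTrMaSt. The MyTrMaSt + CBE range overlapped the WT + PBS range, whose highest value is replicate 1. Pld4 had 45.97, 32.9 and 42.8 CPM in WT + CBE and 9.74, 15.02, 14.99, 11.8 and 13.3 CPM in MyTrMaSt + CBE, 3.12-fold lower (adjusted p 0.000285). Its PBS values were 18.05, 6.91 and 15.6 CPM in WT and 6.22, 6.60 and 4.23 CPM in MyTrMaSt, so the genotypes did not overlap under either treatment, with adjusted p 0.152 between the PBS groups.

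Mpeg1 had 76.2, 85.4 and 65.1 CPM in WT + CBE and 35.8, 36.4, 28.4, 26.6 and 39.53 CPM in MyTrMaSt + CBE, 2.26-fold lower (adjusted p 0.00122), from 1.80, 8.84 and 6.33 CPM in WT + PBS and 3.45, 3.70 and 3.87 CPM in MyTrMaSt + PBS. Lyz2 and Itgb2, whose values are given above, were both 2.07-fold lower (adjusted p 0.00184 and 0.00461). Lyz2 fell just under the fold threshold without WT + CBE replicate 2 (log2 -0.99). Ptprc was 2.53-fold lower (adjusted p 0.00533), and Cd33, with 18.04, 15.02 and 7.83 CPM in WT + CBE and 3.51, 4.51, 5.67, 5.91 and 5.87 CPM in MyTrMaSt + CBE, 2.77-fold lower (adjusted p 0.00755). Without WT + CBE replicate 1 neither was called (Ptprc 0.073, Cd33 0.169). In the PBS groups Cd33 had 0.902, 1.93 and 4.22 CPM in WT and 2.07, 1.59 and 1.76 CPM in MyTrMaSt, which overlap.

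**Figure D5:**
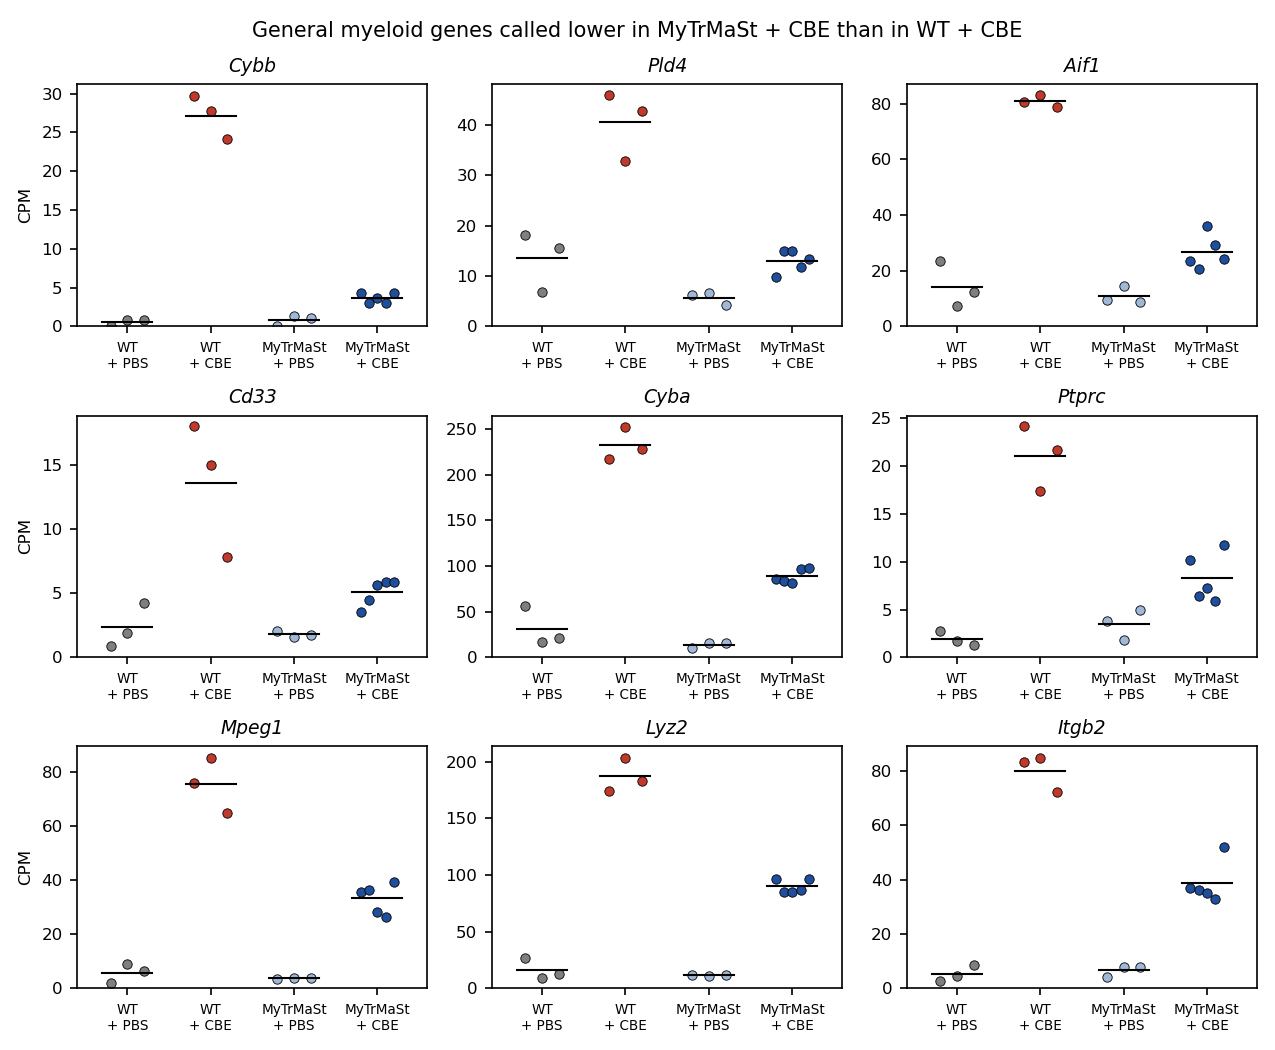
CPM in each library for the 9 general myeloid genes called lower in MyTrMaSt + CBE than in WT + CBE. Points are libraries, bars are group means and each axis starts at 0. In all 9 genes every MyTrMaSt + CBE library is below every WT + CBE library.

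Cd68 passed the adjusted p at 1.64-fold lower (0.00981), as did Adgre1 (1.95-fold), Arhgdib (1.60-fold) and Laptm5 (1.61-fold). Adgre1 was called without MyTrMaSt + CBE replicate 5 or WT + CBE replicate 2 (log2 -1.04 and -1.02). Spi1 was 2.15-fold lower with an adjusted p of 0.073, and was called without MyTrMaSt + CBE replicate 4, WT + PBS replicate 1 or WT + PBS replicate 2 (0.0137 to 0.044). Itgam was 1.69-fold lower (adjusted p 0.061), Csf1r 1.39-fold lower (0.157). Cd14 overlapped between the groups, with 45.97, 44.6 and 40.4 CPM in WT + CBE and 27.7, 46.2, 27.6, 60.6 and 27.4 CPM in MyTrMaSt + CBE (log2 -0.22 ± 0.23, adjusted p 1). Among homeostatic genes the lowest was Tmem119, below all WT + CBE libraries in all 5 MyTrMaSt + CBE libraries (log2 -0.84 ± 0.23, adjusted p 0.0763), and the highest was Olfml3 (log2 0.57 ± 0.18, adjusted p 0.165). The log2 difference was 0.21 ± 0.35 for P2ry12 and -0.43 ± 0.25 for Cx3cr1.

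Between the PBS groups 0 members were called by edgeR, against 0.0337% of all genes higher and 0.127% lower (0.16% in all), and 11 of 41 members had an unadjusted p below 0.05, against 16.8% of all genes. The median log2 difference of MyTrMaSt + PBS from WT + PBS was 0.20 for the homeostatic and -0.22 for the general list. When WT + PBS replicate 1 was left out 0 members were called and these medians were 0.15 and -0.0493. In the fit of all libraries, the general median turned to 0.0048 when ambiguous members were left out. DESeq2 called 1 member, Cyba (log2 -1.11, adjusted p 0.0408), for which edgeR gave -1.05 (adjusted p 0.156), and -0.46 (adjusted p 0.421) without WT + PBS replicate 1. The lowest values were those of P2ry6 (log2 -1.53 ± 0.45, adjusted p 0.142), Unc93b1 (log2 -1.23 ± 0.40, adjusted p 0.157) and Pld4 (log2 -1.11 ± 0.34, adjusted p 0.152). These 3 genes did not overlap between the groups, as held for 8 members in this direction and 10.1% of all genes. Without WT + PBS replicate 2, P2ry6, Pld4, Cyba and Coro1a were called lower (adjusted p 0.0192 to 0.042). Xist counts were 0 in each WT + PBS library and 32 to 46 in MyTrMaSt + PBS, so Xist cannot be told apart from genotype here. With Xist level as a covariate 0 members of either list were called.

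The genotype by treatment interaction asks whether the log2 change with CBE differed between the genotypes. By edgeR 0 of 41 members passed an adjusted p of 0.05, against 0.0759% of all genes upward and 0.413% downward (0.489% in all, 58 genes), and 13 general and 2 homeostatic genes had an unadjusted p below 0.05, against 12.5% of all genes. The median interaction was -0.76 for general and -0.34 for homeostatic genes, and 22 of 26 general values were below 0. The medians were -0.87 and -0.20 without WT + PBS replicate 1. The smallest adjusted p were those of Lcp1 (log2 -1.68 ± 0.38, adjusted p 0.0626) and Ptprc (log2 -2.32 ± 0.56, adjusted p 0.0977). DESeq2 called 3 members, Lcp1 (adjusted p 0.00876), Ptprc (0.0297) and Laptm5 (0.0379). Without WT + PBS replicate 1, edgeR called 5 general genes, all with a smaller rise in MyTrMaSt null mice, when 0.868% of all genes were called. They were Aif1 (log2 -1.85, adjusted p 0.00925), Lyz2 (-1.19, 0.0152), Laptm5 (-0.95, 0.0417), Ptprc (-2.50, 0.0435) and Lcp1 (-1.59, 0.0435).

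Single other libraries also changed interaction calls. Lcp1 passed without MyTrMaSt + CBE replicate 1 or MyTrMaSt + PBS replicate 2, Ptprc without MyTrMaSt + PBS replicate 2, and Cybb without MyTrMaSt + PBS replicate 1 (log2 -3.64, adjusted p 0.0363). In the full fit Cybb had a large interaction with a large error (log2 -3.13 ± 0.85, adjusted p 0.149), and its PBS libraries hold 0 to 5 counts each. Of the homeostatic genes, Maf had the lowest interaction (log2 -1.26 ± 0.40, adjusted p 0.227) and P2ry6 the highest (log2 0.99 ± 0.51, adjusted p 0.435). For P2ry12 it was -0.54 ± 0.51, and for P2ry13 -0.63 ± 0.43. Leaving out WT + PBS replicate 1 gave -0.16 and -0.59.

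Neighbouring members in the genome (mm10) differed in their values. P2ry13 (chr3:59207892-59210882) and P2ry12 (chr3:59216272-59262871), both on the minus strand, are 5.4 kb apart, and P2ry13 was called in WT mice (log2 1.10) while P2ry12 was not (log2 0.05); the difference between the 2 genes was not tested. Tmem119 and Selplg lie 18.0 kb apart on chromosome 5, with log2 changes of 0.78 and -0.18. Exons of several members overlap exons of other genes, and whether the counting used strand is not given in the sources used here. The longest overlaps with genes that were also counted are those of Golm1 with Naa35 (1297 bases, opposite strand), Csf1r with Hmgxb3 (873, opposite), Ncf1 with Gtf2ird2 (408, opposite) and Rnase4 with Ang (219, same strand).

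Of the untested members, Mertk, the clearance receptor for apoptotic cells, stood at 0 to 0.704 CPM in the PBS libraries and 0.469 to 2.95 CPM in the CBE libraries. Hpgds, a prostaglandin D synthase, stood at 0 to 0.844 and 1.17 to 3.20 CPM. Slc2a5 had 3.61, 2.49 and 3.37 CPM in the WT mice given PBS and 2.04, 1.41 and 1.21 CPM in those given CBE. With no filter on counts, Hpgds was called higher in MyTrMaSt null mice (log2 2.63, adjusted p 0.0239) and not in WT mice (2.40, 0.0507), and Mertk and Slc2a5 were not called.

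Genes that support or surround microglia were counted in further lists. Of 15 tested maintenance ligands and receptors, 6 rose in WT mice (5.2% of all genes) and 4 in MyTrMaSt null mice (3.23%). In both genotypes 0 were called lower, against 1.21% and 0.658% of all genes. Csf1, the ligand of Csf1r, rose by a log2 of 1.65 in WT and 1.14 in MyTrMaSt null mice, and Tgfb1, which encodes TGF-β1, was called in MyTrMaSt null mice (2.02) and not in WT (1.01). The TGF-β receptor gene Tgfbr2 rose in both genotypes (1.49 and 1.02), and Tgfbr1 was called in WT (1.49) and not in MyTrMaSt null mice (0.95). Neither Tgfb1 (log2 1.01, adjusted p 0.603) nor Tgfbr1 (-0.54, 0.442) passed the interaction test. Axl, a receptor of the Mertk family, rose in WT mice (1.58), was not called in MyTrMaSt null mice (0.35), and passed the interaction test (log2 -1.23, adjusted p 0.0218). Pros1, which encodes protein S, a ligand of Mertk and Tyro3, rose in WT mice (1.53) and had 0.99 in MyTrMaSt null mice, where it was not called, with an interaction of -0.54 (adjusted p 0.647).

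Among partners of the oxidase and of the integrins, 6 of 6 tested rose in WT mice (5.2% of all genes) and 5 of 6 in MyTrMaSt null mice (3.23%). Of the 6, 4 were called lower in MyTrMaSt + CBE than in WT + CBE (1.93% of all genes). Itgax, which encodes CD11c, had 0 to 1 and 0 to 1 counts per PBS library in WT and MyTrMaSt and 15 to 44 and 6 to 16 per CBE library. The oxidase subunit Ncf4 had log2 changes of 2.58 and 1.495 and a difference between the CBE groups of -1.70. Hvcn1, the proton channel that sustains the oxidase, had 3.01, 2.35 and -1.01, and Fermt3, which activates leukocyte integrins, had 2.46, 2.55 and -1.01. Between the PBS groups the differences were -0.62 for Ncf4, -0.35 for Hvcn1 and -1.10 for Fermt3 (adjusted p 0.549, 0.565 and 0.183), and of the 6 partners 0 were called there and 0 passed the interaction test by edgeR, with 1 and 0 at an unadjusted p below 0.05. Of 26 other microglia genes tested, 15 rose in WT (5.2% of all genes) and 14 in MyTrMaSt null mice (3.23%). Between the CBE groups 5 were lower (1.93% of all genes), Ctss, C1qa, C1qc, Irf8 and Lpcat2. Between the PBS groups this list already had a median of -0.48, with 7 of 26 genes wholly lower in MyTrMaSt (10.1% of all genes) and 1, Trem2, called lower (-1.29), beside a median of -0.46 between the CBE groups. The list summed to 7738 CPM in WT + PBS replicate 1, against 3619.7 and 4117 CPM in the other WT + PBS libraries and 3439 to 3956 CPM in MyTrMaSt + PBS. Irf8, a partner factor of PU.1, differed by -1.11, and Ctss, cathepsin S, by -1.68 with an interaction of -1.18 (adjusted p 0.0291).

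General myeloid genes are shared with cells other than microglia, so markers of those cells are given beside them. Of the border-associated macrophage markers, 9 of 11 were in the table, summing in WT to 21.1 to 33.4 CPM with PBS and 59.1 to 74.5 CPM with CBE, and in MyTrMaSt to 24.9 to 28.2 and 28.5 to 46.3 CPM. In WT mice 3 of 7 tested rose (5.2% of all genes), Ms4a7 (log2 5.13), F13a1 (2.14) and Lyve1 (1.81). In MyTrMaSt null mice 0 of 7 rose (3.23% of all genes). Ms4a7 passed the interaction test (log2 -4.63, adjusted p 0.0111), with 5 counts over the WT + PBS libraries and 193 over WT + CBE. Mrc1 had 0 to 7 counts per WT + PBS library and 4 to 21 per WT + CBE library and was not called (log2 1.24, adjusted p 0.175).

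Of the monocyte markers 4 of 10 were in the table. In WT they summed to 167 to 196.2 CPM with PBS and 195.8 to 268 CPM with CBE, which overlap. In MyTrMaSt they summed to 121 to 162 and 167 to 209.8 CPM. By edgeR 0 of 3 tested were called in any comparison, and Ccr2 and Ly6c2 were not analysed here. Chil3 had 0 counts in all PBS libraries, 1 to 11 with CBE in WT and 1 to 3 with CBE in null mice. The monocyte marker sums with PBS thus rest on the other 3 genes in the table, without Ccr2, Ly6c2 or Chil3. Neutrophil markers were near 0, with S100a9 and Ngp summing to at most 5.67 CPM, and the other 8 of the 10 were not analysed here. Lymphocyte markers summed to 3.52 to 13.5 CPM, with 0 to 6 counts of Cd3e per library. The part of border macrophages or monocytes in the rise of the general list was not tested.

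Proliferation markers and markers of other brain cells are given beside the members. Of all genes tested, 5.2% were called higher and 1.21% lower in WT mice, and 3.23% and 0.658% in MyTrMaSt null mice. In WT mice 3 of 6 proliferation markers rose, Birc5 (log2 2.46), Top2a (2.10) and Mcm5 (1.03), and in MyTrMaSt null mice 1, Birc5 (1.28). Top2a had -0.32 there, and its interaction was not called (adjusted p 0.126). Oligodendrocyte markers summed to 18179 to 21271 CPM in WT given PBS and 11009 to 14231 CPM in WT given CBE, and 3 of 10 fell in WT mice, Ermn, Opalin and Cldn11. They summed to 18395 to 21621 CPM in MyTrMaSt + PBS and 13697 to 18127 CPM in MyTrMaSt + CBE, with 1 of 10 called lower. Of 10 astrocyte markers, 2 rose in WT and 1 in MyTrMaSt null mice, Gfap being called in both (3.31 and 3.31). Neuron markers summed to 4761 to 5706 CPM with PBS and 4143 to 4461 CPM with CBE in WT, and to 5797 to 6780.2 and 4639 to 5575 CPM in null mice, with no overlap in either genotype, and 1 of 10 was called lower in WT (Slc17a7, -1.60) and 0 in null mice. Of 10 endothelial and pericyte markers, 1 was called lower in WT (Rgs5, -1.28) and 2 in null mice (Rgs5, -1.38, and Tek, -1.35), and 0 of 7 choroid plexus markers were called. The part of these cells in the member values was not tested.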

How the data were processed

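Brain tissue of 14 libraries was profiled by MARSseq, which tags transcript 3' ends, in 4 groups taken from the sample labels. The deposited table holds whole-number counts per gene, which the authors made after trimming and alignment to mm10, with cutadapt and HTSeq among the tools of the submitters' processing notes. Whether strand or molecular identifiers entered the counting is not given in the sources used here. The other deposited tables hold normalized signal and the authors' own fold changes and p-values and were not used.

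Counts were scaled by TMM, low genes were removed with filterByExpr on the 4 groups, and 1 quasi-likelihood model of 4 group means was fitted over all genes (edgeR 4.0.16, R 4.3.3), after being tested on simulated data. Counts per tested gene had medians of 29 to 107 per library, which limits the precision of low genes, and intervals cover counting error only. Levels on the log2 scale used a prior count of 2. Alternatives were RLE factors, DESeq2 1.42.0, voom (limma 3.58.1), other filters on low counts, fits of the compared groups alone, Xist level as a covariate, the replicate number as a block, a prior count of 0.5, no fold threshold, leaving out members whose specificity is ambiguous, and leaving out each library in turn. Members and lists were chosen with earlier results of these data known. Values in every library are given for 10 chosen members, for those called between the genotypes or called lower, and for the 3 with the largest and the 3 with the smallest fitted change in WT mice in each list, and a few genes shown beside a result were added after their values were seen. Genes of other lists are named where called, at most 6 a list, and for markers of other myeloid cells also by count. Gene positions come from the mm10 annotation and promoters from RefSeq (GRCm38.p6).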

Additional observations from a re-analysis of the deposited data

Results flagged for a closer look

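In the 5 MyTrMaSt + CBE libraries, a gap test for single distant samples (Dixon's test at the 95% level) was applied to each of the 44 members in the table, and chance marks about 1 in 20 groups. Itgb2 measured 52.1 CPM in replicate 5, against 33.0 to 37.0 CPM in the other libraries of the group. Unc93b1 measured 13.8 CPM in replicate 3, against 7.40 to 9.00 CPM in the others. These are 2 of 44 members, and the groups of 3 libraries were not tested in this way.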

How the results depend on the processing

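With at least 10 counts in every library, which left 22 of the 41 members, 14 members were called in WT mice, 12 in MyTrMaSt null mice and 4 between the CBE groups. The medians of the general list were then 2.23, 1.25 and -0.71, and that of the homeostatic list in MyTrMaSt null mice was 0.64. Without the fold threshold 14 members passed between the CBE groups. DESeq2 called 3 members for the interaction and 1 between the PBS groups. Leaving out ambiguous members gave a general median of 1.85 in MyTrMaSt null mice and 0.0048 between the PBS groups, where its sign turned, and a homeostatic minus general mean in WT + CBE of -1.61 (-1.51 with a prior count of 0.5). Leaving out 1 library gave 0 to 5 interaction calls, 0 to 4 between the PBS groups, and general medians of 2.40 to 2.74 in WT mice, -1.001 to -0.82 between the CBE groups and -0.31 to -0.0493 between the PBS groups.

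In the treatment comparisons, signs turned for 5 named members that were not called. In WT mice P2ry12 was -0.21 with the Xist covariate and -0.32 to 0.37 with 1 library left out, Siglech 0.48 by voom and -0.48 to 0.52, and Coro1a -0.52 to 0.18. In MyTrMaSt null mice Selplg ran from -0.0014 to 0.44 and Sparc from -0.0459 to 0.12. Between the PBS groups Siglech, Rnase4, Adgre1, Lyz2, Ly86, Cybb and Aif1 turned without WT + PBS replicate 1 (Lyz2 -0.31 to 0.13, Aif1 -0.19 to 0.24), as did the Siglech interaction (-0.03 to 0.32). The causes were not tested.

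With the replicate number as a block, Sparc was -0.0211 in MyTrMaSt null mice, and 5 homeostatic and 22 general members were called in WT mice, 6 and 12 in MyTrMaSt null mice and 9 between the CBE groups. Same-numbered libraries deviated with correlations of -0.125 to 0.178. This did not reach 0.1 in every pair of any comparison, and the labels do not tie the numbers to a litter or day, so the numbers were not taken as pairs. As a hint from the data, each of the 6 libraries of the CBE groups numbered 1 to 3 correlated best with its own number, which was so for 0 of 6 in both treatment comparisons and 3 of 6 between the PBS groups.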
